A study of Homo sapiens with 17 samples.

Results

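Histone H3 lysine 27 (H3K27) can carry an acetyl group or methyl groups, and the genes described here encode demethylases of this residue and histone acetyltransferases, of which some act mainly on other lysines. The 10 genes were taken by name: the acetyltransferase genes *EP300*, *CREBBP*, *KAT2A*, *KAT2B*, *KAT6A*, *KAT6B*, *KAT7* and *KAT8*, and the H3K27 demethylase genes *KDM6A* and *KDM6B*. All 10 were found among the 60664 genes of the table, and all 10 passed the filter on low values that left 15599 genes for testing. Their RNA was measured by RNA-Seq in SF8628, a line derived from a diffuse midline glioma (DMG) whose histone H3 carries the K27M mutation. Monolayers of these cells received vehicle (DMSO) or AZD5153 at 1 μM for 24 or 48 hours, and each of the 4 groups had 3 libraries. AZD5153 binds the bromodomains of BET proteins and so competes with acetylated histones. No group lacks the K27M mutation, 1 cell line stands for the tumor, and H3K27 acetylation and the enzymes' proteins were not analysed here. The labels do not say whether the 3 libraries of a group came from separate cultures, so the p-values measure the spread between these libraries, which may be technical.

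p300 and CBP, the products of *EP300* and *CREBBP*, are the main acetyltransferases of H3K27 and act as coactivators at enhancers. GCN5 (*KAT2A*) and PCAF (*KAT2B*) are alternative catalytic subunits of the SAGA and ATAC coactivator complexes and mainly acetylate other lysines of H3. MOZ (*KAT6A*), MORF (*KAT6B*), HBO1 (*KAT7*) and MOF (*KAT8*) belong to the MYST family, which acetylates H3 or H4 within BRPF, JADE, MSL or NSL complexes. UTX (*KDM6A*) and JMJD3 (*KDM6B*) remove methyl groups from H3K27, and UTX is also a subunit of the KMT2C and KMT2D methyltransferase complexes. In cells with the K27M mutation, methylation of H3K27 is low and acetylation is high, and BET proteins read acetylated lysines.

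A library held 15759148 to 27335220 reads on genes, of which each of the 10 genes took 291 to 4838. The first DMSO library at 24 hours stood apart from the other 2 of its group: the chi-square over its degrees of freedom was 16.8 and 25.6, against 2.12 to 5.21 for every other pair of replicates. *HEXIM1*, a gene used as a marker of exposure to BET inhibitors, rose by 2.17 at 24 hours and 2.05 at 48 hours on the log2 scale (adjusted p = 3.11e-14 and 7.04e-14). Of 12 glial and neural lineage markers, 6 averaged at least 10 normalized counts. *OLIG1* and *OLIG2* were at 0 in every library, and *SOX10*, *PDGFRA* and *NCAM1* had means of 1.01, 2.66 and 2.31 normalized counts. The summed level of 7 of 7 mesenchymal and fibroblast markers was 63605 to 91167 normalized counts in the DMSO libraries and 21224 to 28467 in the AZD5153 libraries. Of these, *THY1* was the exception, with a log2 fold change of -0.48 at 24 hours and 0.05 at 48 hours. The summed level of 4 endothelial markers was 326 to 637 in DMSO and 51.1 to 69.7 with AZD5153, that of 6 myeloid and lymphoid markers 177 to 213 and 25.6 to 48.9, and that of 4 neuronal markers 715 to 903 and 1080.0 to 1267. Most of the endothelial sum was *PECAM1* (log2 fold changes of -2.71 and -4.07), followed by *VWF* (-1.71 and -1.77). *CDH5* was at 0 in every library and *CLDN5* averaged 0.995 normalized counts. Of the myeloid and lymphoid markers, only *CSF1R* (-2.73 and -2.49) averaged at least 10. Within the neuronal list *TUBB3* rose, from a mean of 22.6 to 402 at 24 hours and of 19.3 to 291 at 48 hours, while *SNAP25* had log2 fold changes of -1.45 and -1.36 and *SYT1* of 0.10 and 0.19. The glial and neural lineage markers summed to 20292 to 32383 in DMSO and 16150.0 to 21118 with AZD5153, and 4 epithelial markers to 1028 to 1395 and 1195 to 1835. Most of the glial sum was *VIM* (-0.28 and 0.01 at the 2 times), while *NES* (-1.43 and -1.87) and *CSPG4* (-2.23 and -1.76) were lower, and of the epithelial markers *KRT18* was higher (0.32 and 0.57) and *KRT8* lower (-0.15 and -0.38), in log2 fold changes. The part of all these markers in the results was not tested. As the RNA came from whole cultures, fewer cells of a kind and less RNA per cell cannot be told apart.

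AZD5153 changed the RNA of 9 of the 10 genes at 24 hours and of 6 at 48 hours. At 24 hours, *EP300*, *KAT2B*, *KAT8* and *KDM6B* rose and *CREBBP*, *KAT2A*, *KAT6A*, *KAT6B* and *KAT7* fell, so that 4 genes were higher and 5 lower. Of all genes tested at 24 hours, 33.9% were higher and 34.6% lower. At 48 hours, *KAT2B*, *KAT7* and *KAT8* rose and *CREBBP*, *KAT2A* and *KAT6B* fell, 3 genes each way, against 33.1% and 33.9% of all genes tested. With both times combined, 3 of the 10 rose and 3 fell, against 37.7% and 38.0% of all genes tested. Shares near that background are no result about these genes in particular. The median log2 fold change of the 10 genes was -0.10 at 24 hours and 0.05 at 48 hours, and that of all genes tested was 0.00 at both. Without the first DMSO library at 24 hours, 3 of the genes were higher and 5 lower at 24 hours, and *KDM6B* was the one that no longer passed. Of the 15599 genes tested, 5309 were then higher and 5494 lower.

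**Figure D1:**
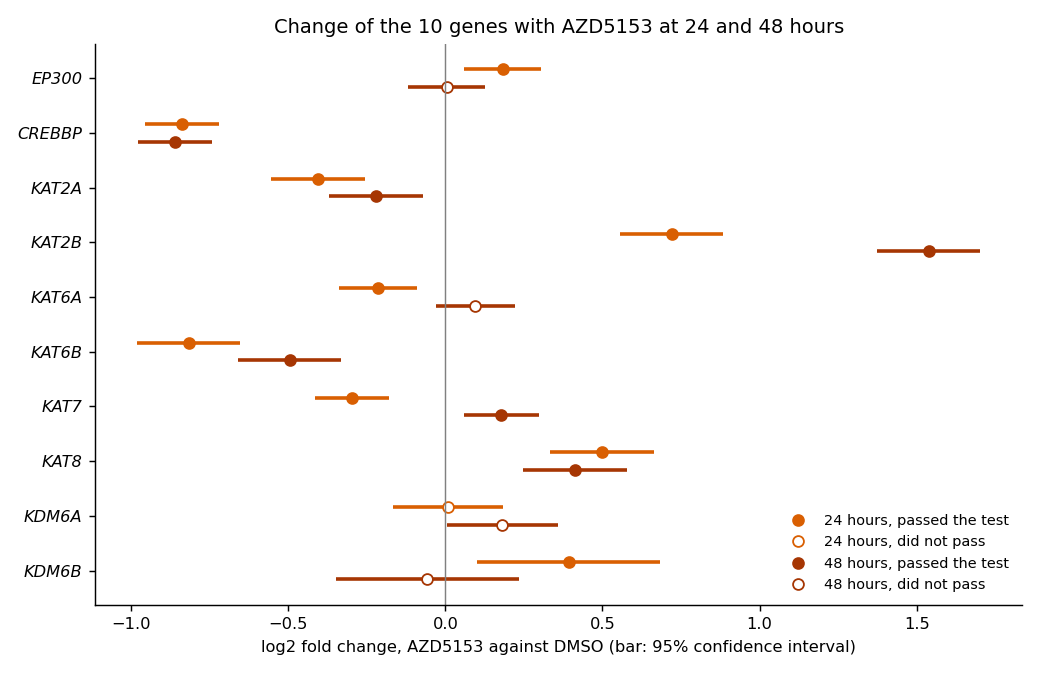
Each point is the log2 fold change of 1 gene, AZD5153 against DMSO, at 24 or 48 hours, with its 95% confidence interval; filled points passed the test across all genes and open points did not. *KAT2B* lies farthest to the right at both times (0.72 and 1.54) and *CREBBP* farthest to the left (-0.84 and -0.86), while *KAT7* lies left of 0 at 24 hours and right of 0 at 48 hours.

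The scaling between libraries sets where 0 lies. When every library was scaled to the same total in place of the deposited scaling, the median of all genes tested moved to -0.12 at 24 hours and -0.17 at 48 hours. At 48 hours, 3896 genes were then higher and 6511 lower, where the deposited scaling gave 5159 and 5294, and over both times 4653 and 7077 in place of 5885 and 5934.

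The *EP300* and *CREBBP* pair was unequal in its response, with *CREBBP* lower by almost the same amount at both times and *EP300* little changed. *CREBBP* (ENSG00000005339, GRCh38 chromosome 16, 3725054 to 3880713, minus strand) had 2991, 2979 and 3339.6 normalized counts in the DMSO libraries at 24 hours and 1755, 1680.2 and 1764 in the AZD5153 libraries. At 48 hours the DMSO libraries gave 3240.0, 3019.5 and 3176 and the AZD5153 libraries 1758, 1693 and 1737. Every AZD5153 library lay below every DMSO library, so that the groups did not overlap at either time. *CREBBP* fell by 0.84 (SE 0.06, adjusted p = 1.63e-09) at 24 hours and by 0.86 (adjusted p = 1.20e-09) at 48 hours on the log2 scale, to 0.559 and 0.550 of the DMSO level. The effects at the 2 times differed by -0.02 (95% confidence interval -0.19 to 0.14, adjusted p = 0.858). At 24 hours 80.9% of all genes tested had a higher log2 fold change than *CREBBP*.

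*EP300* (ENSG00000100393, chromosome 22, 41092592 to 41180077, plus strand) had 1586, 1562 and 1599 normalized counts in the DMSO libraries of 24 hours and 1807, 1744 and 1839.6 in their AZD5153 counterparts. The 48-hour values were 1629, 1443 and 1607 in DMSO and 1618, 1543 and 1528 with the inhibitor. The groups were apart at 24 hours and overlapped at 48 hours. At 24 hours *EP300* rose by 0.18 (SE 0.06, adjusted p = 0.0105), which is 13.5%, but with libraries scaled to equal totals the value was 0.06 (adjusted p = 0.366), and with the scale set by 7 stably expressed genes it was 0.14 (adjusted p = 0.0797). Set against the shifted median of all genes, the value under equal totals was 0.18, which only restates the deposited value. At 48 hours the difference was 0.00 (adjusted p = 0.948), and with equal totals it was -0.17 (adjusted p = 0.0173), which is 0.00 from the shifted median. Over both times the rise of 0.09 passed narrowly (adjusted p = 0.0473) and was -0.05 (adjusted p = 0.242) with equal totals. It also failed (adjusted p = 0.0536 to 0.143) without the second DMSO library of either time, without the first or the third AZD5153 library at 24 hours, and without any one of the AZD5153 libraries at 48 hours. Nor did it pass with quantile normalization (0.04, adjusted p = 0.378), the 7 stable genes (adjusted p = 0.117), DESeq2 (adjusted p = 0.0597), eBayes without a trend (adjusted p = 0.0618) or no minimum mean (adjusted p = 0.0897). Whether the effect on *EP300* differed between the times was not settled, with a difference of -0.18 (95% confidence interval -0.35 to 0.00, adjusted p = 0.126), and -0.27 (adjusted p = 0.0275) with quantile normalization.

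The ratio of the paralogues within a library does not depend on a scaling by 1 factor per library, although quantile normalization can change it. Per kilobase of the MANE Select transcript, the *EP300* level was 0.628 ± 0.0345 (SD, n = 3) of the *CREBBP* level in the DMSO libraries of 24 hours and 1.27 ± 0.00819 in the treated ones. The ratio at 48 hours was 0.609 ± 0.0189 in DMSO and 1.11 ± 0.0263 in AZD5153. *CREBBP* thus had the higher level per kilobase in all 6 DMSO libraries and *EP300* in all 6 AZD5153 libraries. The crossing at 48 hours depends on the division by length: as plain counts, *EP300* was at 0.880 to 0.921 of *CREBBP* in the AZD5153 libraries of 48 hours and at 1.03 to 1.04 in those of 24 hours. The log2 ratio changed by 0.94 over both times (exact permutation test within times, 400 arrangements, two-sided p = 0.005, the smallest this design can give; 0.00667 adjusted over the 4 pairs of paralogues). The sum of the 2 levels per kilobase was 444 to 492 in the DMSO libraries and 333 to 373 in the AZD5153 libraries.

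The 250 bases upstream of the start sites of *EP300*, *CREBBP*, *KAT2A* and *KAT2B* are printed from RefSeq (GRCh38.p14), since in these pairs the paralogues differed in their response and the letters before their start sites can be compared. An entry was matched by symbol for 8 of the 10 genes, and in each of the 8 the window ends at the start of the MANE Select transcript. *KAT6A* and *KAT8* had no entry. The *KAT6A* and *KAT6B* pair also differed in its response but could not be compared in this way. Both strands were searched for the GC box (GGGCGG) and for the half-site of the cyclic AMP response element (TGACG), the sequence that CREB-family factors recognize, and capitals mark the matches. The regions are chr22:41092342-41092591 (plus strand) for *EP300*, chr16:3880714-3880963 (minus strand) for *CREBBP*, chr17:42121368-42121617 (minus strand) for *KAT2A* and chr3:20040196-20040445 (plus strand) for *KAT2B*.
EP300: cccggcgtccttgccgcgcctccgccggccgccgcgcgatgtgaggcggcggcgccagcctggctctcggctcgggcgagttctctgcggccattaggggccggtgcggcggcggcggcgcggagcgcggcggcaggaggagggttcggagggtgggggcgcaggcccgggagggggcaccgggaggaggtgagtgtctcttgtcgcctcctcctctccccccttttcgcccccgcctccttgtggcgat
CREBBP: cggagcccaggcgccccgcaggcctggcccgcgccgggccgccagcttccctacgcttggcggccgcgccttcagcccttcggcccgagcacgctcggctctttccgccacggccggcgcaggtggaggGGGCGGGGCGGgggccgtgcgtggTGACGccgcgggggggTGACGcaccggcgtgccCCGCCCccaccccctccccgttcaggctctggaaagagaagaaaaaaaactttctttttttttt
KAT2A: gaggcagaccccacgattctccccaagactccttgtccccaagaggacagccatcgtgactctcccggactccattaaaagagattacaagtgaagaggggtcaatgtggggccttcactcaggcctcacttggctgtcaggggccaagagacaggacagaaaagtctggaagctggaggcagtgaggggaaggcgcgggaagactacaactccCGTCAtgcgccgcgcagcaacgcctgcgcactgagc
KAT2B: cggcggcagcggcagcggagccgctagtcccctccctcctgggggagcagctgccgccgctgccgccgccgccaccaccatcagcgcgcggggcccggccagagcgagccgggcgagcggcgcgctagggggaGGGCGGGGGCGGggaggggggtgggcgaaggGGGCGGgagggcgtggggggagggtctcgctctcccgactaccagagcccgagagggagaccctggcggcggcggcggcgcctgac
The *CREBBP* window holds 3 GC boxes, the first 2 of which share 1 base, and 2 half-sites, and the *EP300* window holds neither motif. The *KAT2B* window holds 3 GC boxes and no half-site, and the *KAT2A* window holds 1 half-site and no GC box. Of the other 4 windows, *KDM6B* has 4 GC boxes, *KDM6A* 2 GC boxes and 1 half-site, *KAT6B* 1 GC box and *KAT7* 2 half-sites. The CCAAT box (CCAAT) and the E-box (CACGTG) were also searched, and the printed windows hold neither. *KAT6B* has 4 CCAAT boxes, and *KDM6A* has 2 CCAAT boxes and 1 E-box. A GC box occurs in 42.5%, the half-site in 21.2%, the CCAAT box in 32.0% and the E-box in 6.32% of all 34943 promoter windows of this length. G and C make up 80.8% of the *KAT2B* window, 76.8% of *EP300*, 72.4% of *CREBBP* and 58.8% of *KAT2A*, against a median of 58% over all windows. These matches describe the letters only.

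*KAT2A* and *KAT2B*, which encode interchangeable subunits of the same complexes, moved in opposite directions. *KAT2B* (ENSG00000114166, chromosome 3, 20040446 to 20154404, plus strand) had 744, 686 and 616 normalized counts in the 24-hour DMSO libraries and 1175, 1065 and 1126 in the 24-hour AZD5153 libraries. By 48 hours the DMSO libraries held 806, 849 and 772 and the AZD5153 libraries 2461, 2182 and 2421. Every AZD5153 library was above every DMSO library, and the AZD5153 libraries of 48 hours lay far above those of 24 hours. *KAT2B* rose by 0.72 (SE 0.08, adjusted p = 5.17e-07) or 1.65-fold at 24 hours, and by 1.54 (adjusted p = 6.12e-11) or 2.91-fold at 48 hours. The rise at 48 hours exceeded that at 24 hours by 0.82 (95% confidence interval 0.59 to 1.05, adjusted p = 7.80e-05). At 48 hours 3.48% of all genes tested had a higher log2 fold change, and at 24 hours 17.7%.

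*KAT2A* (ENSG00000108773, chromosome 17, 42113111 to 42121367, minus strand) had 2317, 2672 and 2922 normalized counts in DMSO and 1911, 2096 and 1944 with AZD5153 after 24 hours. After 48 hours the libraries had 2426, 2435 and 2335 in DMSO and 2069.9, 2085 and 2019 with AZD5153. The groups did not overlap at either time, and the DMSO libraries at 24 hours were the most spread, with the library that stands apart the lowest of them. *KAT2A* fell by 0.41 (SE 0.07, adjusted p = 9.57e-05) at 24 hours and by 0.22 (adjusted p = 0.0114) at 48 hours, to 0.755 and 0.858 of the DMSO level. The effects at the 2 times differed by 0.18 (adjusted p = 0.194), or by 0.27 (adjusted p = 0.00582) without the first DMSO library at 24 hours.

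Per kilobase, the level of *KAT2A* was 5.55 ± 1.15 (SD, n = 3) times that of *KAT2B* in the 24-hour DMSO libraries and 2.51 ± 0.249 times in the treated ones. The 48-hour ratio was 4.20 ± 0.123 in DMSO and 1.24 ± 0.0966 in AZD5153, so that the 2 genes came close to equal levels. Which of them was higher there depends on the division by length. As plain counts, *KAT2A* was at 0.834 to 0.956 of *KAT2B* in the AZD5153 libraries of 48 hours. The log2 ratio changed by -1.44 over both times (exact permutation test, two-sided p = 0.005, 0.00667 adjusted over 4 pairs). The sum of the pair per kilobase at 24 hours was 913 to 1078 in DMSO and 879 to 914 with AZD5153, and the groups overlapped. The 48-hour sum was 925 to 974 in DMSO and 1164 to 1223 with AZD5153, and the groups did not overlap.

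**Figure D2:**
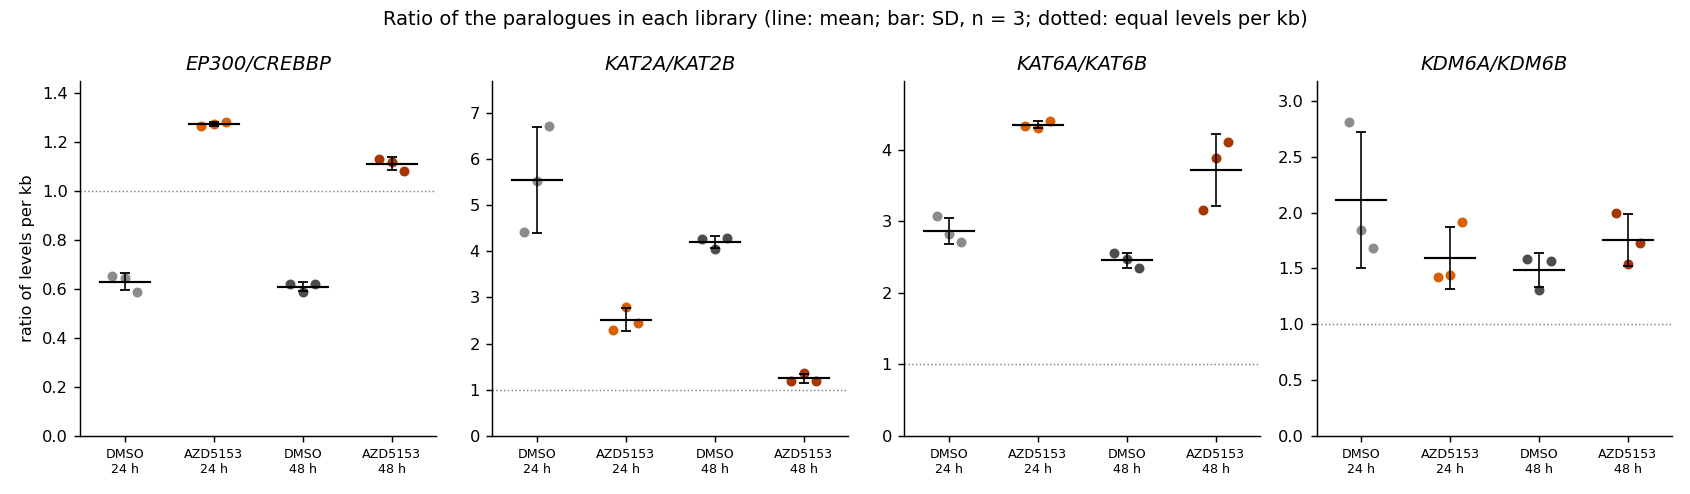
Each point is 1 library, and the axis is the ratio of the 2 paralogues' levels per kilobase of transcript in that library, with the mean as a line and the SD (n = 3) as a bar. The *EP300* to *CREBBP* ratio passes from below to above the dotted line of equal levels with AZD5153, the *KAT2A* to *KAT2B* ratio drops to 1.24 at 48 hours, and the *KDM6A* to *KDM6B* groups overlap.

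Among the MYST family, *KAT6B* fell and *KAT8* rose at both times, and *KAT6A* and *KAT7* fell at 24 hours only. *KAT6B* (ENSG00000156650, chromosome 10, 74824927 to 75032624, plus strand) had 976, 950.2 and 957 normalized counts in the DMSO libraries and 527, 544 and 565 in the AZD5153 libraries of 24 hours. Those of 48 hours had 878, 887 and 953 in DMSO and 721, 616 and 596 in AZD5153. All 6 AZD5153 libraries lay below all 6 DMSO libraries. *KAT6B* fell by 0.82 (SE 0.08, adjusted p = 1.16e-07) at 24 hours and by 0.50 (adjusted p = 3.04e-05) at 48 hours, to 0.568 and 0.709 of the DMSO level. The fall was smaller at 48 hours by 0.32 (adjusted p = 0.0415), and this difference passed narrowly: without the first AZD5153 library at 48 hours, which had the highest level of its group, it was 0.24 (adjusted p = 0.109). It failed as well (adjusted p = 0.0645 to 0.0957) without the second DMSO library at 24 hours, the first or second AZD5153 library at 24 hours, or the first or second DMSO library at 48 hours. Nor did it pass with equal totals (adjusted p = 0.0819), quantile normalization (adjusted p = 0.108), edgeR (adjusted p = 0.0618), no minimum mean (adjusted p = 0.0754) or eBayes without a trend (adjusted p = 0.0589).

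*KAT6A* (ENSG00000083168, chromosome 8, 41929479 to 42051994, minus strand) had 3296, 2949 and 2854 normalized counts in DMSO after 24 hours and 2513, 2578 and 2743 with AZD5153. After 48 hours DMSO libraries had 2465, 2414 and 2455 and treated libraries 2507, 2637 and 2696. The AZD5153 libraries of the 2 times covered nearly the same range, while the DMSO libraries were lower at 48 than at 24 hours. *KAT6A* fell by 0.21 (SE 0.06, adjusted p = 0.00432) at 24 hours. At 48 hours the difference was 0.10 (adjusted p = 0.163) although the groups did not overlap, and -0.08 (adjusted p = 0.278) with equal totals, which is 0.09 above the shifted median. The 48-hour difference passed when only the groups compared were fitted (adjusted p = 0.0408). Over both times the difference was -0.06, and -0.21 (adjusted p = 0.000363) with equal totals, which is -0.06 from the shifted median, and -0.13 (adjusted p = 0.0135) with quantile normalization. The ratio of *KAT6A* to *KAT6B* per kilobase was 2.86 ± 0.184 (SD, n = 3) in DMSO and 4.35 ± 0.0515 with AZD5153 after 24 hours, and 2.45 ± 0.107 and 3.72 ± 0.500 after 48 hours. Its log2 value changed by 0.60 over both times (exact permutation test, two-sided p = 0.005, 0.00667 adjusted over 4 pairs).

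*KAT7* (ENSG00000136504, chromosome 17, 49788624 to 49835026, plus strand) had 3352, 3444 and 3167 normalized counts in the DMSO libraries and 2617, 2626 and 2867 in the treated libraries of 24 hours. In the libraries of 48 hours the values were 2918, 2729 and 3004 in DMSO and 3160.4, 3257 and 3364 with AZD5153. The groups were apart at both times but in opposite order. *KAT7* fell by 0.30 (SE 0.06, adjusted p = 0.000204) at 24 hours and rose by 0.18 (adjusted p = 0.0104) at 48 hours. The rise was 0.01 (adjusted p = 0.924) with equal totals, 0.04 (adjusted p = 0.574) with quantile normalization and 0.14 (adjusted p = 0.0615) without the second DMSO library at 48 hours. The difference between the effects was 0.48 (95% confidence interval 0.31 to 0.64, adjusted p = 0.000485) and passed under every scaling tried. Over both times *KAT7* did not pass, but it was lower by equal totals (-0.21, adjusted p = 0.000178) and by quantile normalization (-0.14, adjusted p = 0.00502). *FAM117A*, on the opposite strand, shares 226 bp of exon with *KAT7* and rose by 0.71 and 0.55 at the 2 times. Its mean level was 773 normalized counts against 3042 for *KAT7*, and the strand setting of the counting is not given in the sources used here.

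*KAT8* (ENSG00000103510, chromosome 16, 31114489 to 31131393, plus strand) had 919, 898 and 1107 normalized counts in DMSO and 1326, 1391 and 1400.2 with AZD5153 after 24 hours. After 48 hours the values in DMSO were 1069, 1139 and 1235 and those with AZD5153 1505, 1507 and 1565. All 6 AZD5153 libraries were above all 6 DMSO libraries. *KAT8* rose by 0.50 (SE 0.08, adjusted p = 3.37e-05) or 1.41-fold at 24 hours and by 0.41 (adjusted p = 0.000214) or 1.33-fold at 48 hours. The effects at the 2 times differed by -0.09 (95% confidence interval -0.32 to 0.15, adjusted p = 0.610). A long noncoding RNA within its span on the same strand (ENSG00000278133, mean 241 normalized counts) shares no exon base with it and rose by 0.56 and 0.45.

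Of the H3K27 demethylase genes, *KDM6B* passed the test at 24 hours, and neither gene passed at 48 hours. *KDM6A* (ENSG00000147050, chromosome X, 44873188 to 45112779, plus strand) had 836, 714 and 747 normalized counts in DMSO and 739, 770.0 and 798 with AZD5153 after 24 hours. After 48 hours there were 813, 685 and 710.5 in DMSO and 877, 843 and 780.3 with AZD5153. The groups overlapped at both times, with differences of 0.01 (95% confidence interval -0.17 to 0.18, adjusted p = 0.933) and 0.18 (0.00 to 0.36, adjusted p = 0.0655). The latter interval allows a rise of up to 0.36, but with equal totals the difference at 48 hours was 0.0095 (adjusted p = 0.926), which is 0.18 above the shifted median. The test passed when only the groups compared were fitted (adjusted p = 0.0224) or the 7 stable genes set the scale (adjusted p = 0.0350). It passed too (adjusted p = 0.0196 to 0.0456) without the first DMSO library at 24 or at 48 hours or the third AZD5153 library at 48 hours, and without the first DMSO library at 24 hours the rise over both times was 0.13 (adjusted p = 0.0339).

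*KDM6B* (ENSG00000132510, chromosome 17, 7834217 to 7854796, plus strand) had the fewest reads of the 10 genes. Its values were 328, 428 and 489 normalized counts in DMSO and 573, 589.8 and 460.2 with AZD5153 after 24 hours, and the groups overlapped. They also overlapped after 48 hours, with 566, 579 and 502 in DMSO and 484, 604 and 499 with AZD5153. The lowest value of all belonged to the DMSO library that stands apart. *KDM6B* rose by 0.39 (SE 0.14, adjusted p = 0.0192) at 24 hours, but by 0.23 (adjusted p = 0.0634) without that library and 0.27 (adjusted p = 0.0919) with equal totals, and it did not pass when only the groups compared were fitted (adjusted p = 0.0522). Without the first or the second AZD5153 library at 24 hours the rise was 0.35 (adjusted p = 0.0694) or 0.33 (adjusted p = 0.0820). Over both times *KDM6B* was 0.23 higher (adjusted p = 0.0285) without the third DMSO library at 24 hours and 0.26 higher (adjusted p = 0.0168) with quantile normalization, against 0.17 (adjusted p = 0.129) with the deposited scaling. At 48 hours the difference was -0.06 (95% confidence interval -0.35 to 0.23, adjusted p = 0.728), and -0.23 (adjusted p = 0.152) with equal totals. The level of *KDM6A* per kilobase was 2.11 ± 0.612 (SD, n = 3) times that of *KDM6B* in DMSO and 1.59 ± 0.278 times with AZD5153 at 24 hours, and 1.49 ± 0.155 and 1.76 ± 0.231 times at 48 hours. The log2 ratio differed by -0.07 over both times (exact permutation test, two-sided p = 0.715, also after adjustment over 4 pairs).

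**Figure D3:**
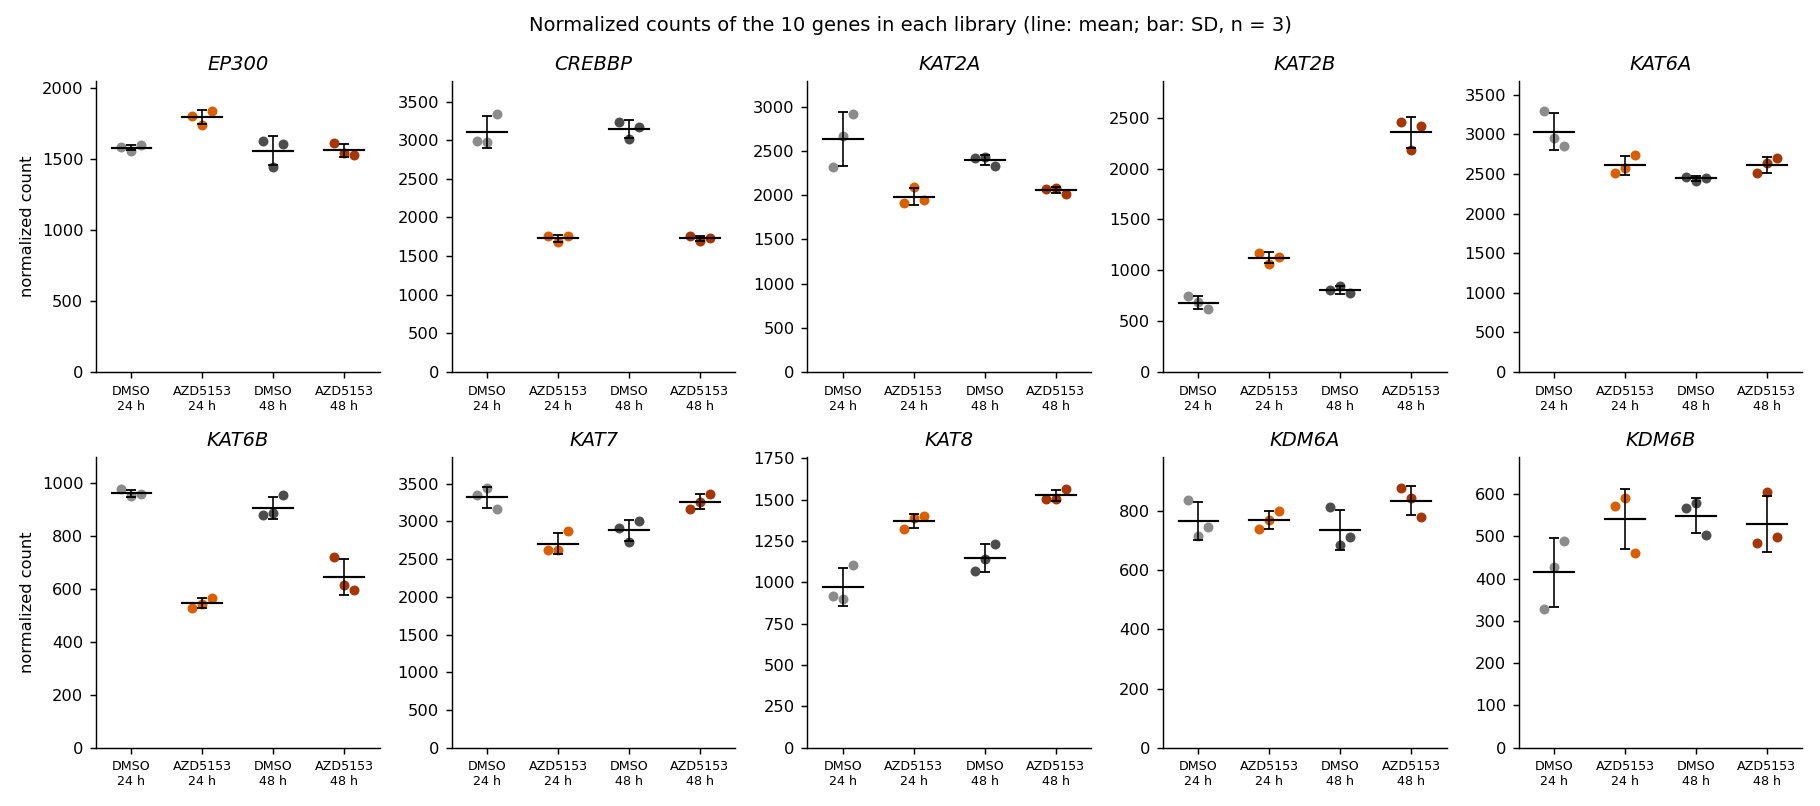
Each panel shows 1 gene, each point 1 library in normalized counts, and the line and bar the mean and SD of the 3 libraries; every axis starts at 0. *CREBBP*, *KAT2A*, *KAT2B*, *KAT6B* and *KAT8* separate the treatments in the same order at both times, *KAT6A* and *KAT7* change their order between the times, and *KDM6A* and *KDM6B* overlap.

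Time in culture also moved some of the genes. From 24 to 48 hours in DMSO, 3 of the 10 genes rose and 2 fell, where 16.4% of all genes tested rose and 19.3% fell (2551 and 3015 genes, or 3127 and 2440 with equal totals). *KAT2B* rose by 0.25 (adjusted p = 0.0190), *KAT8* by 0.24 (adjusted p = 0.0255) and *KDM6B* by 0.42 (adjusted p = 0.0263). *KAT6A* fell by 0.31 (adjusted p = 0.000765) and *KAT7* by 0.20 (adjusted p = 0.00957). Without the second DMSO library at 48 hours, none of the 3 rises nor the fall of *KAT7* passed (adjusted p = 0.0583 to 0.0926). *KAT2B* also lost its call without the third DMSO library at 24 hours, *KAT8* without the second at 24 or the third at 48 hours, and *KDM6B* without the first at 48 hours. *KAT2A* fell by 0.22 (adjusted p = 0.00231) without the DMSO library that stands apart, and *KDM6B* was then 0.26 higher (adjusted p = 0.0685). When only the groups compared were fitted, *KAT2B* (adjusted p = 0.0632) and *KAT8* (adjusted p = 0.0920) did not pass, nor did *KAT8* (adjusted p = 0.0573) and *KDM6B* (adjusted p = 0.0680) with eBayes without a trend, nor *KAT7* (-0.10, adjusted p = 0.172) with quantile normalization. In AZD5153, 3 genes rose from 24 to 48 hours and 1 fell, against 15.8% and 13.8% of all genes tested. *KAT2B* rose by 1.07 (adjusted p = 7.78e-08), *KAT7* by 0.27 (adjusted p = 0.00173) and *KAT6B* by 0.24 (adjusted p = 0.0300). *EP300* fell by 0.20 (adjusted p = 0.0151), and by 0.12 (adjusted p = 0.203) when scaled to the 7 stable genes. The change of *KAT6B* did not pass (adjusted p = 0.0720 to 0.162) without the first or second AZD5153 library at 24 hours or the first at 48 hours, nor with quantile normalization (adjusted p = 0.0535) or no minimum mean (adjusted p = 0.0548), and that of *EP300* did not pass (adjusted p = 0.0519 to 0.0606) without the third at 24 hours or the second or the third at 48 hours. *KAT8* rose in AZD5153 by 0.24 (adjusted p = 0.0362) with the stable genes as the scale and by 0.15 (adjusted p = 0.0257) when only the groups compared were fitted. Scaling to the stable genes gave 3406 genes higher and 1372 lower in AZD5153, in place of 2472 and 2155.

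The effect of AZD5153 was higher at 48 than at 24 hours for *KAT2B*, *KAT6A*, *KAT6B* and *KAT7*, and lower for none of the 10 by limma with the adjusted p. Of all genes tested, 14.4% had a higher and 10.1% a lower effect at 48 hours. At an unadjusted p under 0.05, *EP300* and *KDM6B* (2 of the 10) had a lower effect at 48 hours, and by edgeR and DESeq2 with adjusted p the count was 0. Of all genes tested, edgeR gave 1765 with a lower effect at 48 hours and DESeq2 1728. *KAT6A* differed by 0.31 (95% confidence interval 0.13 to 0.49, adjusted p = 0.0133) and by 0.20 (adjusted p = 0.1003) with quantile normalization. For *KDM6B* the difference was -0.45 (adjusted p = 0.106), and without the third DMSO library at 24 hours -0.58 (adjusted p = 0.0243). Over all genes, 2254 had a higher and 1575 a lower effect at 48 hours, which became 1760 and 1893 with equal totals and 2826 and 1165 when scaled to the 7 stable genes.

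Levels were compared between genes as normalized counts per kilobase of the MANE Select transcript. In DMSO at 24 hours, *KAT2A* had the highest level (847 ± 97.5, SD, n = 3), followed by *KAT8* (652 ± 77.1) and then *KAT7* (349 ± 14.8) and *KAT6A* (331 ± 25.4), whose libraries overlapped. *CREBBP* (288 ± 19), *EP300* (180.3 ± 2.13) and *KAT2B* (155 ± 14.5) came next, each apart from its neighbours. *KDM6A* (126 ± 10.4) and *KAT6B* (116 ± 1.6) overlapped, and *KDM6B* was the lowest (61.7 ± 12.1). With AZD5153 at 48 hours, *KAT8* had the highest level (1021 ± 22.7), followed by *KAT2A* (661 ± 11.1) and *KAT2B* (534 ± 34.2), which had been the seventh in DMSO at 24 hours and the sixth at 48 hours. *CREBBP* (160.3 ± 3.08) had moved to the place below *EP300* (178 ± 5.52), and *KDM6B* (78.6 ± 9.72) and *KAT6B* (77.5 ± 8.11) were the lowest and overlapped. The gap between *KAT8* and the others depends on its short transcript of 1495 bases, as a gene read mostly from longer transcripts would have a lower level per kilobase. The order of the other genes depends on the division by length as well. As mean plain counts in DMSO at 24 hours, *KAT7* (3321), *CREBBP* (3103) and *KAT6A* (3033) lay above *KAT2A* (2637) and *KAT8* (975).

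**Figure D4:**
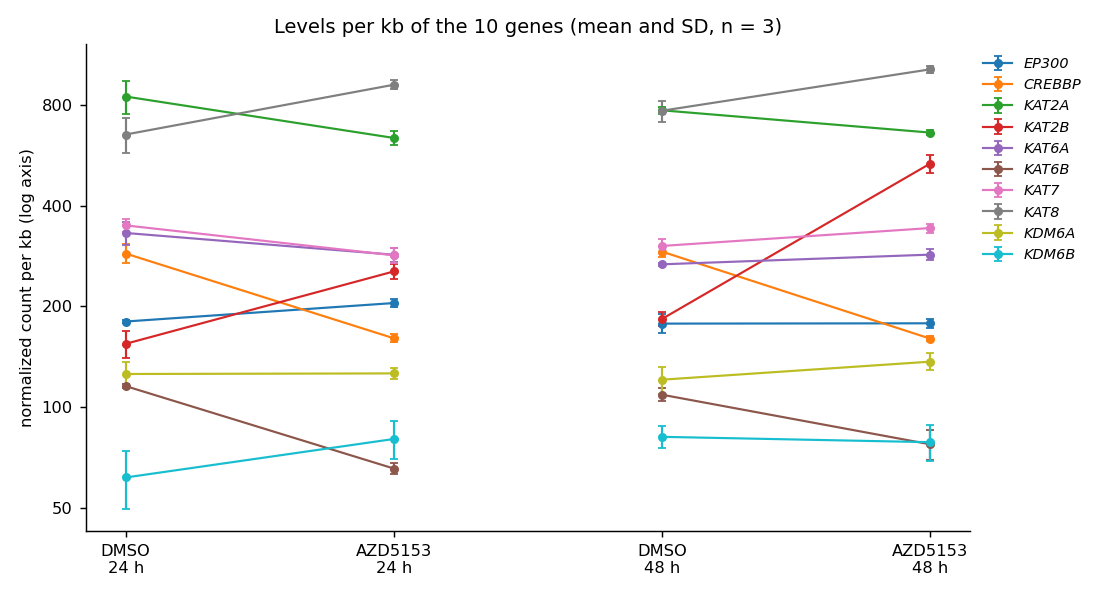
Points are the mean level of each gene in normalized counts per kilobase of transcript on a log axis, with the SD of 3 libraries, and lines join DMSO and AZD5153 of the same time. *CREBBP* crosses below *EP300* at both times, *KAT2B* climbs from 183 to 534 at 48 hours, and *KDM6A* stays between 121 and 137.

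The partners of these enzymes were taken from lists of known complex members, and over both times every list held genes that rose and genes that fell. The counts below stand against 37.7% of all genes tested that were higher and 38.0% that were lower over both times. *WDR5* and *KAT14* belong to more than 1 list and are counted in each. Of the 13 listed partners of p300 and CBP, 12 were tested, 4 rose and 4 fell (median log2 fold change -0.06, against 0.00 for all genes tested). *CITED2*, which competes for a domain of p300 and CBP, rose by 0.80 and the CREB coactivator gene *CRTC1* by 0.88, while *ATF1*, a CREB-family factor, fell by 1.25 and the nuclear receptor coactivator gene *NCOA2* by 1.40. *CRTC1* had a mean of 260.3 ± 52.7 (SD, n = 3) normalized counts in DMSO and 731 ± 69.9 with AZD5153 at 24 hours (adjusted p = 5.45e-08 by limma), but at 48 hours the means were 496 ± 35.2 and 593 ± 62.3 and the difference of 0.26 did not pass (adjusted p = 0.101). Of 24 listed SAGA and ATAC subunits, 23 were tested, 7 rose and 11 fell (median -0.09). Here *TAF12* and *TAF10* rose by 1.04 and 0.91, and the adaptor genes *TADA1* and *TADA2A* fell by 0.94 and 0.58.

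Of 9 subunits that KAT6A, KAT6B or KAT7 work with, 3 rose and 4 fell (median -0.08). The scaffold genes *JADE2* and *JADE1*, which direct HBO1 to H4, fell by 3.04 and by 2.02 (adjusted p = 1.18e-13 and 1.72e-14), the largest falls of the list. *JADE2* had a mean of 1356 ± 114 (SD, n = 3) normalized counts in DMSO and 113 ± 19.6 with AZD5153 after 24 hours, and 912 ± 34.6 and 162 ± 28.4 after 48 hours. The scaffold genes *BRD1* and *BRPF1*, whose products direct the enzymes to H3, rose by 0.46 and 0.22, although *BRPF1* did not pass at 48 hours alone (0.21, adjusted p = 0.0510). Of 11 MSL and NSL subunits, with which MOF works, 4 rose and 4 fell (median -0.07): *KANSL3* and *KANSL2* rose by 0.51 and 0.25, and *MSL1* and *KANSL1* fell by 1.04 and 0.81. *KANSL2* did not pass at 24 hours alone (0.08, adjusted p = 0.320).

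Of 11 other acetyltransferase genes, 5 rose and 5 fell (median -0.02), among them *ELP3* (0.50) and *NAA10* (0.46), which rose, and *CLOCK* (-0.71) and *ESCO2* (-1.18), which fell. The value of *ESCO2* was -1.90 at 24 hours and -0.46 at 48 hours, and the difference between the times passed the test (1.44, adjusted p = 8.70e-06). In the KMT2C and KMT2D complex that holds UTX, 4 of 9 genes rose and 3 fell (median 0.08). *KMT2C*, a methyltransferase gene, rose by 0.77 and *RBBP5*, a core subunit gene, by 0.57, while *NCOA6* and *PAGR1* fell by 0.72 and 0.92. The rise of *RBBP5* was 0.32 at 24 hours and 0.82 at 48 hours, and this difference passed (0.50, adjusted p = 0.00125 by limma). Of 19 genes for other histone demethylases and their relatives, 12 rose and 5 fell, and their median of 0.39 was the highest of the lists. *KDM1B*, which acts on H3 lysine 4, rose by 1.70, *KDM7A*, which acts on H3 lysines 9 and 27, by 1.36, while *PHF2* fell by 2.55 and *KDM2B* by 0.48. For *KDM7A* the rise was 1.72 at 24 hours and 0.99 at 48 hours, and this difference passed (-0.73, adjusted p = 0.0117 by limma). With equal totals 12 of these demethylase genes were higher and 6 lower, and the counts of genes that rose became 1 in the list of KAT6 and KAT7 partners, 1 for MSL and NSL and 2 for the other acetyltransferases. Of the 15599 genes tested, 4653 were then higher and 7077 lower.

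**Figure D5:**
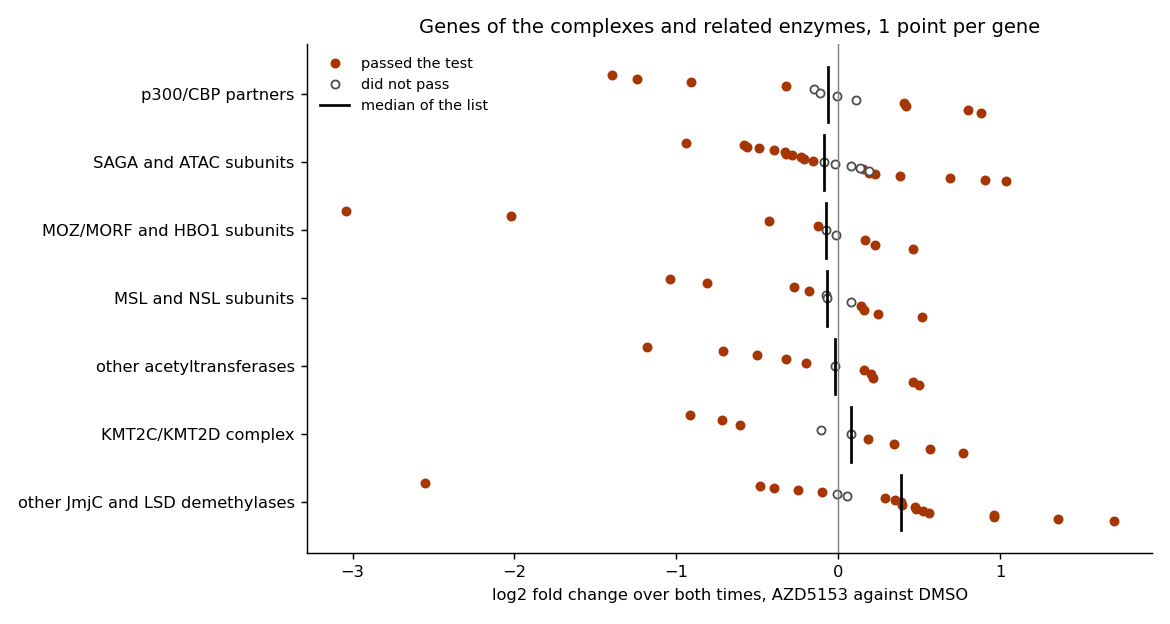
Each point is the log2 fold change of 1 gene over both times, AZD5153 against DMSO, in 1 of 7 lists; filled points passed the test and black lines are the medians of the lists. *WDR5* and *KAT14* belong to more than 1 list and are drawn in each. *JADE2* (-3.04), *PHF2* (-2.55) and *JADE1* (-2.02) lie farthest to the left, and *KDM1B* (1.70) farthest to the right.

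The genes most like *KAT2B* and *CREBBP* in their pattern over the 12 libraries were sought among 10960 other genes that averaged at least 100 normalized counts, by Pearson correlation of the log2 values. For *KAT2B* these were *AK3* (r = 0.989), *RAPGEF2* (0.989) and *NPEPPS* (0.988), and for *CREBBP* they were *GBP1* (0.994), *KIRREL1* (0.994) and *TNFRSF1A* (0.993). *AK3* rose by 0.77 at 24 hours and 1.45 at 48 hours, and *GBP1* fell by 2.25 and 2.30. The 12 libraries share their treatment and time, so these correlations describe the 4 groups as much as the single libraries.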

How the data were processed

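RNA-Seq was measured in SF8628 cells in 4 groups of 3 libraries, and the grouping was taken from the labels. The authors prepared libraries with an NEBNext Ultra II kit, sequenced paired-end reads, mapped these to hg38 using STAR, assigned them to genes by HTSeq and normalized the counts in DESeq2; versions, annotation and strand setting are not given in the sources used here. The deposited values of each library are a signal, namely counts divided by 1 size factor, and 100% of them were whole reads within 0.05 after multiplication by the size factor. The deposited table also holds the mean signal, log2 fold changes with their errors, test scores and p-values of a comparison by the authors, which were not used. Columns without a sample numbered 0. Samples of the CUT&RUN assay were not analysed here.

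The 15599 genes that averaged at least 10 normalized counts were tested as log2(normalized count + 1), so fold changes of low genes are understated. limma 3.58.1 in R 4.3.3 (lmFit, eBayes with a trend, Benjamini-Hochberg adjustment at 0.05) fitted all 4 groups together. Ratios of paralogues were tested by exact permutation of treatment within time. Depth was 15759148 to 27335220 reads per library. Positions and MANE Select lengths are from GENCODE 44 on GRCh38, matched by gene identifier. Promoter windows are from RefSeq (GRCh38.p14).

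Alternatives were other pseudocounts (0.5 and 10), no minimum and a minimum mean of 100, 3 other scalings, a replicate block, a fit of only the groups compared, eBayes without a trend, edgeR 4.0.16 and DESeq2 1.42.0 on the recovered reads, and leaving out each library. The named genes are the 10 genes, genes that overlap them, *HEXIM1*, the 3 most similar genes for the highest and the lowest of the 10, and from each list up to 2 with the largest rise and 2 with the largest fall over both times among those past the threshold. The 10 genes and the lists were chosen with earlier results of these data known. The fits were tested on simulated data. The values of 1 lineage marker are not reported here.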

Additional observations from a re-analysis of the deposited data

Results flagged for a closer look

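For 4 of the 10 genes, the effect of AZD5153 at 48 hours differed from its effect at 24 hours by the test of that difference. All 4 had a higher effect at 48 hours, where 14.4% of all genes tested had a higher effect and 10.1% a lower one. On the log2 scale, the difference was 0.82 for *KAT2B*, whose rise grew, 0.48 for *KAT7*, which was lower at 24 hours and higher at 48 hours, 0.32 for *KAT6B*, whose fall shrank, and 0.31 for *KAT6A*, which was lower at 24 hours and did not pass at 48 hours. The adjusted p-values were 7.80e-05, 0.000485, 0.0415 and 0.0133. The difference for *KAT6B* did not pass with equal totals, quantile normalization, edgeR, no minimum mean, eBayes without a trend or a replicate block (adjusted p = 0.0589 to 0.108), nor when any 1 of 6 libraries was left out (adjusted p = 0.0645 to 0.109). That for *KAT6A* did not pass with quantile normalization (adjusted p = 0.1003). The difference for *KAT7* passed under each of these scalings, but its rise at 48 hours did not pass with equal totals (0.01, adjusted p = 0.924), with quantile normalization (0.04, adjusted p = 0.574) or without the second DMSO library at 48 hours (0.14, adjusted p = 0.0615). Each difference is the change with time in AZD5153 minus that in DMSO. From 24 to 48 hours *KAT6A* changed by 0.0014 in AZD5153 and -0.31 in DMSO, and *KAT7* by 0.27 in AZD5153 and -0.20 in DMSO.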

How the results depend on the processing

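Other pseudocounts and a minimum mean of 100 changed no call of the 10 genes. With equal totals 2 of them were higher at 24 hours and 5 lower over both times. The counts among the 15599 genes tested were then 4340 and 7077. With quantile normalization 5 were lower over both times, against 5450 of all genes tested. Under it 2 had a higher and 1 a lower effect at 48 than at 24 hours, against 1761 and 1601. With time in DMSO 1 then fell, against 2888. Fitting only the groups compared gave 5 higher at 48 hours, against 5652 of all genes tested. It gave 1 that rose with time in DMSO, against 2150, and so did eBayes without a trend (1, against 2308). Scaling to 7 stable genes left 0 that fell with time in AZD5153, against 1372 of all genes tested. Leaving out 1 library, 0 to 1 gene had a lower effect at 48 hours, 0 to 3 rose and 1 to 3 fell with time in DMSO, and 0 to 1 fell with time in AZD5153. Among all genes tested these counts were 1213 to 1977, 1935 to 2831, 2507 to 3204 and 1703 to 2856, in that order. Counts near such backgrounds are no result about these genes in particular. On the recovered reads edgeR called 5394 genes higher and 5298 lower at 24 hours and 5127 and 5450 at 48 hours. Log2 values that changed sign, all within 0.17 of 0, were as follows. For *EP300* the 48-hour difference was -0.17 with equal totals, -0.095 with quantile normalization, -0.010 by edgeR and -0.00095 by DESeq2 and ranged from -0.050 to 0.037 when 1 library was left out, the difference over both times was -0.053 with equal totals, and the change with time in DMSO was 0.030 with equal totals, 0.062 with quantile normalization and -0.055 to 0.032 with 1 library left out. For *CREBBP* the difference between times was 0.049 with stable genes and -0.078 to 0.0049 with 1 library left out, the change in DMSO -0.0078 to 0.075, and that in AZD5153 0.081 with stable genes, 0.0016 with equal totals and -0.025 to 0.012. For *KAT6A* the 48-hour difference was -0.076 with equal totals and -0.024 with quantile normalization, and the change in AZD5153 was -0.015 with quantile normalization, -0.014 by edgeR and -0.026 to 0.037 with 1 library left out. For *KDM6A* the 24-hour difference was -0.038 with stable genes, -0.11 with equal totals and -0.041 to 0.073 with 1 library left out, that over both times -0.053 with equal totals, and the change in DMSO -0.13 to 0.0079. For *KDM6B* the 48-hour difference was 0.030 with quantile normalization and -0.16 to 0.0029 with 1 library left out, and the change in AZD5153 0.054 with stable genes and -0.14 to 0.036. The *KDM6A* to *KDM6B* ratio changed by -0.14 to 0.040 with 1 library left out, the highest without the first DMSO library at 24 hours. The cause was not tested. In the deviations of each gene from its group mean, libraries of the same number were correlated at -0.15 to 0.036. Numbers were therefore not read as pairs. By this measure 8 of 18 comparisons had a library closest to its own number. With a replicate block, *EP300* over both times (0.09, adjusted p = 0.0510) and the *KAT6B* difference between times (0.32, adjusted p = 0.0645) no longer passed, and no other call among the 10 genes changed.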
